A study of Mus musculus with 8 samples.

Results

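The libraries described are 4 of the 8 RNA sequencing libraries of a study of group 2 innate lymphoid cells (ILC2), the 2 labelled E47-ER at 4 h and the 2 labelled GFP at 4 h. All 4 held ILC2 from the thymus of C57BL/6 mice of the plck-Id1 genotype, in which the plck promoter drives Id1, an inhibitor of E proteins. After stimulation with IL-25, IL-33 and IL-7 the cells received the MIGR1 retrovirus, and GFP-positive cells were sorted and grown further. The vector expressed GFP alone in 1 arm and GFP with E47-ER, a fusion of the E protein E47 with the estrogen receptor, in the other. Cells of both arms were given 4-hydroxytamoxifen, the estrogen receptor ligand, for 4 h before RNA was taken. No E47-ER library without the drug was included, so a difference present before the drug cannot be told apart from one that followed it. The genes were chosen by counts alone, and 13087 of the 50686 genes in the table had enough counts at 4 h to be tested. The lists and examples below give weight to genes outside those usually used to describe ILC2 and T cells.

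E47 is a basic helix-loop-helix transcription factor made from Tcf3. E proteins bind as dimers to short DNA motifs called E boxes and recruit coactivators or corepressors. Id proteins lack the basic region that contacts DNA, and they pair with E proteins and keep them off it. In the thymus E proteins drive T cell development, and mice in which Id1 restrains them make many ILC2, cells that secrete IL-5 and IL-13 without an antigen receptor. A fusion with the hormone-binding part of the estrogen receptor is held inactive until its ligand is added.

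Total counts per library were 15459513 and 18677675 for GFP and 15212699 and 13761761 for E47-ER. Levels are given as CPM (counts scaled to library size), with trimmed-mean scaling between libraries, for GFP replicates 1 and 2 and then E47-ER replicates 1 and 2. A gene was called higher or lower when its adjusted p was under 0.05 in edgeR's quasi-likelihood test with Benjamini-Hochberg adjustment over all tested genes. Log2 fold changes are E47-ER against GFP with their standard error (SE). Whether the replicates are separate mice, cultures or preparations is not in the labels, and the tests therefore rest on the spread of 2 libraries a group, which may be technical. Since these are bulk samples, fewer cells of a type and less RNA per cell cannot be told apart.

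The libraries carried the defining genes of the labelled cell type. Gata3, the central ILC2 transcription factor, stood at 900, 1102, 878 and 886 CPM, and Il1rl1, the IL-33 receptor gene, at 1967, 2198, 1972 and 2187 CPM. Of the markers of other cell types, Cd8a, Rag1, Ncr1 and Foxn1 had 0 counts in all 4 libraries. The summed level of 12 thymocyte and T cell markers was 154 and 169 CPM in GFP and 227 and 231 CPM in E47-ER libraries, with Trbc1 and Trdc called higher. The 15 B cell markers summed to 15.3 and 19.3 CPM in GFP and 24.2 and 24.9 CPM in E47-ER libraries, with Ighm called higher and Igll1 and Ighd also at 0 counts. The 14 granulocyte and mast cell markers summed to 70.3 and 98.6 CPM in GFP and 38.1 and 52.2 CPM in E47-ER libraries, nearly all of it Ly6g and Mcpt8, and Elane, Mcpt4, Tpsb2, Fcer1a and Epx were at 0 counts. The 10 ILC3 markers summed to 140 and 138 CPM in GFP and 179 and 181 CPM in E47-ER libraries, with Ltb and Il17f called higher. The 15 myeloid markers summed to 20.8 and 21.9 CPM against 22.4 and 28.2 CPM, with Csf1r called higher, and the 13 stromal, epithelial and endothelial markers to 164 and 160 CPM against 169 and 167 CPM, with Epcam called higher. The 12 NK cell and ILC1 markers summed to 26502 and 29693 CPM against 29350 and 31303 CPM and the 8 erythroid markers to 2.20 and 2.41 CPM against 2.17 and 2.03 CPM, so the groups overlapped in the first and not in the second. The NK cell and ILC1 sum was nearly all Gzmb and Gzma, neither of them called. The part of other cells in the results below was not tested.

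The construct was visible in the libraries labelled with it. Esr1, the estrogen receptor gene, whose reads include those of the fusion, stood at 0.322 and 0.216 CPM in GFP and 53.4 and 46.7 CPM in E47-ER libraries (log2 fold change 7.52, SE 0.224, adjusted p = 9.47e-11). Tcf3, whose reads also include the fusion, stood at 80.9 and 83.2 CPM against 153 and 167 CPM (0.96, SE 0.0839, adjusted p = 1.19e-05). Neither gene had overlapping groups. Id1, the gene also carried by the transgene, whose matching reads are counted with it, stood at 37.5 and 24.2 CPM against 67.4 and 61.2 CPM (1.07, SE 0.177, adjusted p = 0.0137), and its call was lost without E47-ER replicate 2.

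Promoters of raised genes are shown first, because E proteins bind E boxes. They come from the 19 genes with the largest rises, apart from Esr1, among those outside the lineage lists, without predicted genes, with a mean log2 CPM of 2 or more, a limit that leaves out genes of fewer counts with larger rises, such as Gal and Wnt10b. Of the 19, 4 had a RefSeq promoter window that held the E box CAGCTG or CACCTG on either strand, 12 had a window without either and 3 had no window in the table. Each window runs from 250 bases before to 50 bases after a transcript start (RefSeq, GRCm38.p6) and is written 5′ to 3′ on the gene's strand, with the E boxes (CAGGTG is CACCTG on the other strand) in capitals. Cdk20 encodes a cyclin-dependent kinase, Sema6d a transmembrane semaphorin, Ccno a cyclin needed by multiciliated cells and Irf8 a transcription factor of myeloid and B cells. For Sema6d and Irf8, which have 2 windows each, the first window with a match is shown.
Cdk20, chr13:64432303-64432602, strand +: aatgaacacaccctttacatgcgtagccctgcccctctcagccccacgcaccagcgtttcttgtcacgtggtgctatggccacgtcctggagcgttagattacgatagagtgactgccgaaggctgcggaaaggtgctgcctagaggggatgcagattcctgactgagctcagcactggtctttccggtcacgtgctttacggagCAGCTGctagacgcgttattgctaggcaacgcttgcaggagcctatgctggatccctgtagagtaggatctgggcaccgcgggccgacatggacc
Sema6d, chr2:124653331-124653630, strand +: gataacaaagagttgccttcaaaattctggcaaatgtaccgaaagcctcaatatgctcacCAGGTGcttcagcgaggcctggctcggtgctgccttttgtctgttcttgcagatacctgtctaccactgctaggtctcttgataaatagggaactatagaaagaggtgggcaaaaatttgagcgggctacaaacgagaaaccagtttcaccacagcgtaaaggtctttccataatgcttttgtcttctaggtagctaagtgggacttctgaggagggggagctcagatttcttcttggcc
Ccno, chr13:112987552-112987851, strand +: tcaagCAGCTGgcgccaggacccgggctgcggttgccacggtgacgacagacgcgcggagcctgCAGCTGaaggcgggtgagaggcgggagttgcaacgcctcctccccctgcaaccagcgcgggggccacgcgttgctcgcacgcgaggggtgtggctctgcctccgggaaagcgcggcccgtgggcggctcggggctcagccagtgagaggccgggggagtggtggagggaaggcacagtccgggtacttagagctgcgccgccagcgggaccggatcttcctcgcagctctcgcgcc
Irf8, chr8:120738389-120738688, strand +: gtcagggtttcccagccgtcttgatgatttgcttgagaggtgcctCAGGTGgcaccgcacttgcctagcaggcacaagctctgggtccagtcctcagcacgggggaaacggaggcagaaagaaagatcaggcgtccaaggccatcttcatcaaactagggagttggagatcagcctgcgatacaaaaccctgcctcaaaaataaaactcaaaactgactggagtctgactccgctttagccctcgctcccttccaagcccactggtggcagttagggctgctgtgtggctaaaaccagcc
The Cdk20 window has 1 CAGCTG, the Ccno window has 2, and the Sema6d and Irf8 windows have 1 CAGGTG each.

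Across all called genes, these letters were only slightly more frequent than in other promoters. Taking the first window of each gene, CAGCTG or CACCTG was present in 69 of 207 genes called higher (33.3%), 46 of 137 called lower (33.6%) and 2744 of all 9532 tested genes with a window (28.8%). Over all 32851 windows in the table the share was 32.9%, with 16.3% for CAGCTG and 20.2% for CACCTG. On its own, CAGCTG was in 16.9% of the higher, 21.2% of the lower and 14.3% of the tested genes. For CACCTG the shares were 19.3%, 16.1% and 16.9%. Only the share with either motif was nearly the same in the genes that rose and those that fell. A match describes letters in this window and says nothing of binding.

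At 4 h, 276 genes (2.11% of those tested) were called higher and 166 (1.27%) lower with E47-ER, 442 in all (3.38%). Of these, 423 were protein coding and 422 lay outside the ILC2 and T lineage lists, 264 of them higher and 158 lower. The rises were larger than the falls. There were 92 genes that rose by more than 1 on the log2 scale and 29 by more than 2, against 19 that fell by more than 1. The median log2 fold change was 0.70 over the higher, -0.58 over the lower and -0.01 over all tested genes. All 442 had groups that did not overlap, which held for 45.8% of all tested genes as well. Groups that lie apart in the called genes below therefore add nothing to their calls. The 4 libraries of this time were fitted on their own, because a 16 h library, GFP replicate 2, stood apart and enters the shared spread when all 8 are fitted. With all 8, 39 of the 442 were called (37 higher and 2 lower), and with the other 7, 434 of them. Leaving out each of the 4 libraries in turn, 213 (155 higher and 58 lower) were called every time. Gene by gene, the fits were looked up only for genes under the naming rule given with the processing. Atf4, Ighm, Epcam, Palmd, Olfr525, Olfr527 and 5830411N06Rik, also named below, were not among them. Of the genes looked up and named below, those that lost their call without E47-ER replicate 2 were Abca1, Agrn, Btg2, Cbx7, Ciart, Csf2rb, Ext1, Id1, Il5, Itgb3, Kcnn4, Ldha, Ptges, Rabggta, Rbpj, S1pr1, Sema4d, Stc2, Tgfb1, Themis and Tinf2. Without E47-ER replicate 1 the calls of Cbx7, Cdh1, Grb7, Il13, Il33, Lgmn, Map3k8, Oasl1, Tgfb1, Tgm1 and Tinf2 were lost. Without GFP replicate 1 those of Ext1 and Tinf2 were lost, and without GFP replicate 2 those of Cbx7, Il33 and Sema4d. With DESeq2 in place of edgeR the calls of Agrn, Cbx7, Cdh1, Ciart, Ext1, Grb7, Il33, Oasl1, S1pr1, Stc2 and Tinf2 were lost.

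**Figure D1:**
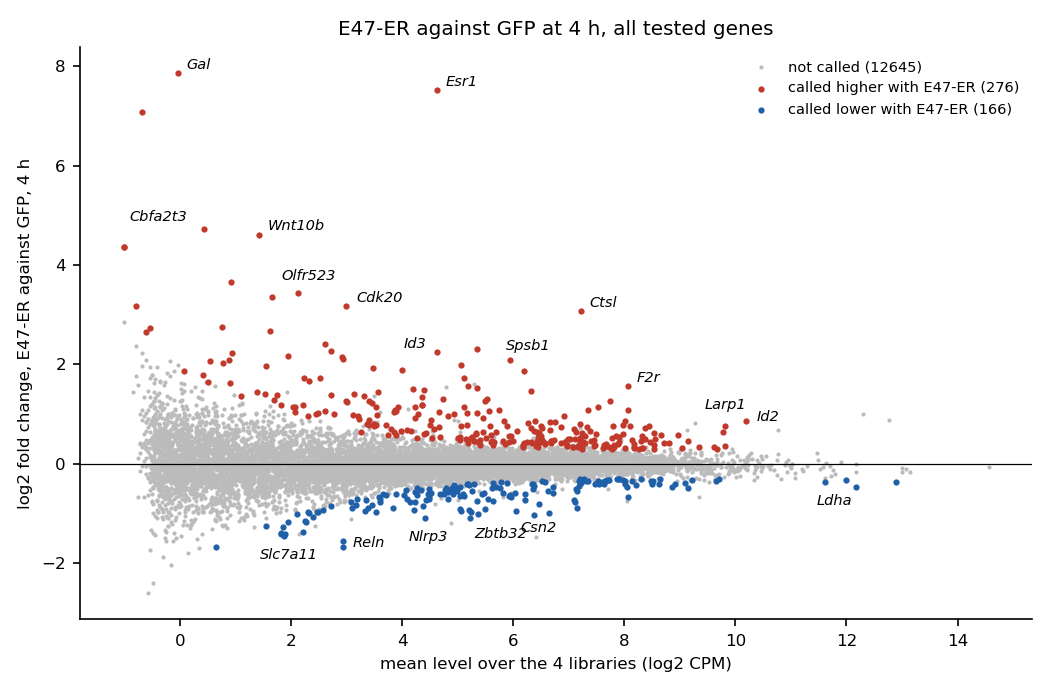
Log2 fold change of E47-ER against GFP at 4 h (y axis) by mean level in log2 CPM (x axis) for each of the 13087 tested genes. Red points are the 276 genes called higher and blue points the 166 called lower. Gal is drawn at its fitted value of 7.87, but it had 0 counts in both GFP libraries, so the size of its rise is not fixed. Esr1 lies at 7.52, whereas among the lower genes named here the largest fall is that of Slc7a11 (-1.67).

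Within the E protein network itself, inhibitors and a corepressor rose while the other E protein genes were not called. Of the 9 tested members of the list, 5 were called higher and none lower, with a median log2 fold change of 0.86. Tcf3 and Id1 are among the 5. That is 55.6% of the list, where 3.38% of all tested genes were called. This list and those below were chosen with earlier results of these data known, so a share above that of all tested genes is no test of a list. Id2, the inhibitor that ILC depend on, stood at 787 and 870 CPM in GFP and 1509 and 1499 CPM in E47-ER libraries (0.86, SE 0.0784, adjusted p = 1.62e-05). Id3, a further inhibitor, stood at 10.5 and 6.97 CPM against 46.5 and 35.7 CPM (2.25, SE 0.188, adjusted p = 4.3e-05). In both genes each E47-ER library lay above each GFP library. Cbfa2t3, an ETO family corepressor that binds E proteins, had 1 and 2 counts in the GFP libraries and 35 and 38 in the E47-ER libraries (adjusted p = 0.000142), which leaves the size of that rise poorly fixed. Tcf4 (-0.39, adjusted p = 0.0907) and Tcf12 (0.19, adjusted p = 0.40), the other E protein genes, did not pass.

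Cdk20 and Ctsl were among the genes with the largest rises at a mean log2 CPM of 2 or more. Ctsl, the lysosomal protease cathepsin L, stood at 25.9 and 37.1 CPM in GFP and 266 and 267 CPM in E47-ER libraries (3.07, SE 0.137, adjusted p = 9.67e-07). Cdk20 stood at 1.35 and 1.84 CPM against 14.1 and 15.0 CPM (3.17, SE 0.219, adjusted p = 1.07e-06). Both were called in each of the 14 alternative fits. Ctsl, Crispld2, Spsb1, Trio, Irf8, Slc7a11 and Reln overlap predicted or non-coding genes and Cdk20 overlaps 1700015C15Rik, so a part of their reads may belong to those. Of the 28 lysosomal genes tested (7.14% called, where 3.38% of all tested genes were), Ctsl alone was called higher and Lgmn, the protease legumain, alone was called lower (-0.41, adjusted p = 0.0138). Cdk20 and E2f2, a transcription factor of the cell cycle (0.84, adjusted p = 9.02e-05), were the only 2 of 39 cell cycle genes called (5.13%), and the median of that list was 0.01.

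Several raised genes encode secreted or surface signals. Wnt10b, a Wnt ligand, had 2 and 5 counts in the GFP libraries and 77 and 74 in the E47-ER libraries, or 0.129 and 0.27 CPM against 5.0 and 5.45 CPM (4.62, SE 0.406, adjusted p = 1.19e-05). It was the only called member of 21 tested Wnt pathway genes (4.76%, where 3.38% of all tested genes were called). Crispld2, a secreted protein gene, stood at 16.4 and 11.2 CPM against 70.2 and 66.3 CPM (2.32, SE 0.144, adjusted p = 9.67e-07). Esm1, which encodes the proteoglycan endocan and is best known in endothelium, stood at 29.3 and 33.8 CPM against 95.7 and 134 CPM (1.86, SE 0.156, adjusted p = 0.00013). The E47-ER libraries were above the GFP libraries in all 3 genes. Esm1 overlaps Gzmk on the opposite strand and no source used here gives the strand setting of the counts, so the reads of the pair cannot be told apart. Gal, the galanin gene, had 0 counts in both GFP libraries and 19 and 34 in the E47-ER libraries, at least 21.2-fold higher than the floor of 0.0882 CPM, which is 3 counts over the GFP pair (adjusted p = 0.000855).

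Of 54 tested cytokine, chemokine and TNF family genes and their receptors outside the ILC2 lists, 10 were called higher and 1 lower, with a median of 0.17. That is 20.4% called, where 3.38% of all tested genes were. Il6ra, the IL-6 receptor chain, stood at 0.838 and 0.324 CPM in GFP and 6.1 and 5.52 CPM in E47-ER libraries (3.35, SE 0.362, adjusted p = 7.06e-05). The lymphotoxin gene Ltb (25.1 and 18.2 CPM against 46.8 and 48.7, 1.15, adjusted p = 0.00013) and its neighbour Tnf (10.7 and 8.32 against 18.4 and 20.6, 1.04, adjusted p = 0.00111) both rose. Ccr2, a chemokine receptor of monocytes and lymphocytes, stood at 659 and 709 CPM against 1102 and 1037 CPM (0.64, SE 0.0772, adjusted p = 0.000154). The member called lower was Osm, the cytokine oncostatin M, at 548 and 528 CPM against 385 and 389 CPM (-0.48, SE 0.0728, adjusted p = 0.0014). None of these 5 had overlapping groups, which held for all called genes and for 45.8% of all tested genes.

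Among G protein coupled receptors and their regulators 5 of 39 were called higher and 1 lower (15.4% called, where 3.38% of all tested genes were). F2r, the thrombin receptor gene, stood at 155 and 118 CPM in GFP and 423 and 379 CPM in E47-ER libraries (1.56, SE 0.119, adjusted p = 3.51e-05). Gpr55 (0.56, adjusted p = 0.000624), Lpar6 (0.53, adjusted p = 0.000869) and P2ry14 (0.50, adjusted p = 0.00502), receptors for lipids and for UDP sugars, rose by less. S1pr1, the sphingosine phosphate receptor that guides lymphocyte exit from tissue, fell from 9.54 and 11.9 CPM to 5.84 and 5.74 CPM (-0.89, SE 0.187, adjusted p = 0.0154). Lpar6 overlaps Rb1 and P2ry14 overlaps Med12l, each on the opposite strand, so part of their reads may come from those genes.

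Semaphorins and guidance receptors, known from axon growth and also used by lymphocytes, had 6 of 19 tested members called higher and none lower (median 0.30). That is 31.6% called, where 3.38% of all tested genes were. Sema6d stood at 2.51 and 3.03 CPM in GFP and 14.2 and 10.7 CPM in E47-ER libraries (2.16, SE 0.219, adjusted p = 4e-05). Sema7a, a membrane-anchored semaphorin, stood at 28.0 and 25.5 CPM against 60.3 and 67.6 CPM (1.26, SE 0.105, adjusted p = 7.42e-06). Epha2, an ephrin receptor (1.49, adjusted p = 5.45e-05), and Nrp2, a semaphorin coreceptor (1.14, adjusted p = 0.000454), rose as well, and Sema4d rose by 0.34 (adjusted p = 0.0317). Sema3f, at -0.69 (adjusted p = 0.299), had the lowest value of the list and did not pass.

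Of the 30 tested TGF-beta pathway genes 4 were called higher and 1 lower (16.7% called, where 3.38% of all tested genes were), and their median was -0.10. Lrrc32, whose product GARP holds latent TGF-beta on the cell surface, stood at 7.34 and 6.48 CPM in GFP and 25.0 and 25.9 CPM in E47-ER libraries (1.88, SE 0.14, adjusted p = 2.17e-06). Tgfb3, a ligand, stood at 8.7 and 10.4 CPM against 26.9 and 27.3 CPM (log2 fold change 1.5, SE 0.135, adjusted p = 1.52e-05), while Tgfb1, another ligand, fell from 642 and 681 CPM to 519 and 534 CPM (-0.33, SE 0.0742, adjusted p = 0.0233). The receptor Tgfbr2 (0.50, adjusted p = 0.00136) and the signal transducer Smad3 (0.42, adjusted p = 0.0149) were higher. Tgfb3 overlaps Ttll5 on the opposite strand.

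Spsb1, a SOCS box adaptor of ubiquitin ligases, went from 23.5 and 23.6 CPM to 98.0 and 103 CPM (2.09, SE 0.094, adjusted p = 1.44e-08). Of 37 tested ubiquitin ligase and SOCS box genes it was the 1 called higher, and 1 was called lower. That is 5.41% called, near the 3.38% of all tested genes. Ppp1r16b, a regulatory subunit of protein phosphatase 1, stood at 119 and 133 CPM against 304 and 301 CPM (1.26, SE 0.0802, adjusted p = 9.67e-07). Trio, a guanine nucleotide exchange factor, stood at 39.2 and 46.5 CPM against 119 and 116 CPM (1.46, SE 0.0982, adjusted p = 1.01e-06). Both E47-ER libraries lay above both GFP libraries in each of these genes, as in all genes called higher. Sla, an adaptor that lowers antigen receptor signalling (1.09, adjusted p = 1.83e-06), Sdc4, the proteoglycan syndecan-4 (1.14, adjusted p = 1.63e-06), and Rasgrp1, an activator of Ras (0.76, adjusted p = 3.28e-05), also rose. Sla overlaps Tg on the opposite strand. Of 36 phosphoinositide and phospholipase genes 4 were called higher and none lower, the largest Inpp4b (0.56, adjusted p = 0.0181). That is 11.1% called, where 3.38% of all tested genes were.

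Enzymes that build glycans had 5 of 36 tested members called higher and 1 lower (16.7% called, where 3.38% of all tested genes were). St8sia1, which makes the ganglioside GD3, stood at 3.41 and 2.38 CPM in GFP and 12.6 and 12.4 CPM in E47-ER libraries (2.12, SE 0.212, adjusted p = 3.71e-05). Chst2, a sulfotransferase (1.41, adjusted p = 0.00172), Galnt3, which starts mucin-type chains (0.61, adjusted p = 0.0024), and B4galt1, a galactosyltransferase (0.55, adjusted p = 0.00108), rose too. Ext1, an enzyme of heparan sulfate chains, fell by 0.53 (adjusted p = 0.0436).

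Transcription factors outside the lineage lists went both ways, with 5 of 48 called higher and 4 lower (18.75% called, where 3.38% of all tested genes were). Irf8 stood at 15.7 and 21.1 CPM in GFP and 55.5 and 53.4 CPM in E47-ER libraries (1.56, SE 0.13, adjusted p = 7.42e-06). Snai3, a Snail family zinc finger gene, stood at 2.51 and 2.11 CPM against 11.4 and 10.7 CPM (2.26, SE 0.213, adjusted p = 2.17e-05). Zbtb32, a BTB zinc finger repressor, stood at 48.6 and 52.0 CPM against 22.3 and 25.3 CPM (-1.08, SE 0.11, adjusted p = 3.94e-05). Pou2f2, an octamer factor, fell by 0.99 (adjusted p = 0.000419) and Mycn by 0.91 (adjusted p = 0.00926). Of 28 immediate early genes 3 rose and 3 fell (21.4% called, where 3.38% of all tested genes were). Those that rose include Zfp36l2 (0.76, adjusted p = 3.71e-05), an RNA-binding protein that destabilizes messages, and Btg2 (0.67, adjusted p = 0.0118). Myc, the growth regulator, was among those that fell, at 104 and 120 CPM against 69.8 and 58.6 CPM (-0.80, SE 0.105, adjusted p = 0.000338). Cited2, a coregulator that competes with hypoxia-inducible factor for its coactivators, fell from 167 and 181 CPM to 108 and 96.2 CPM (-0.77, SE 0.087, adjusted p = 9.69e-05).

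**Figure D2:**
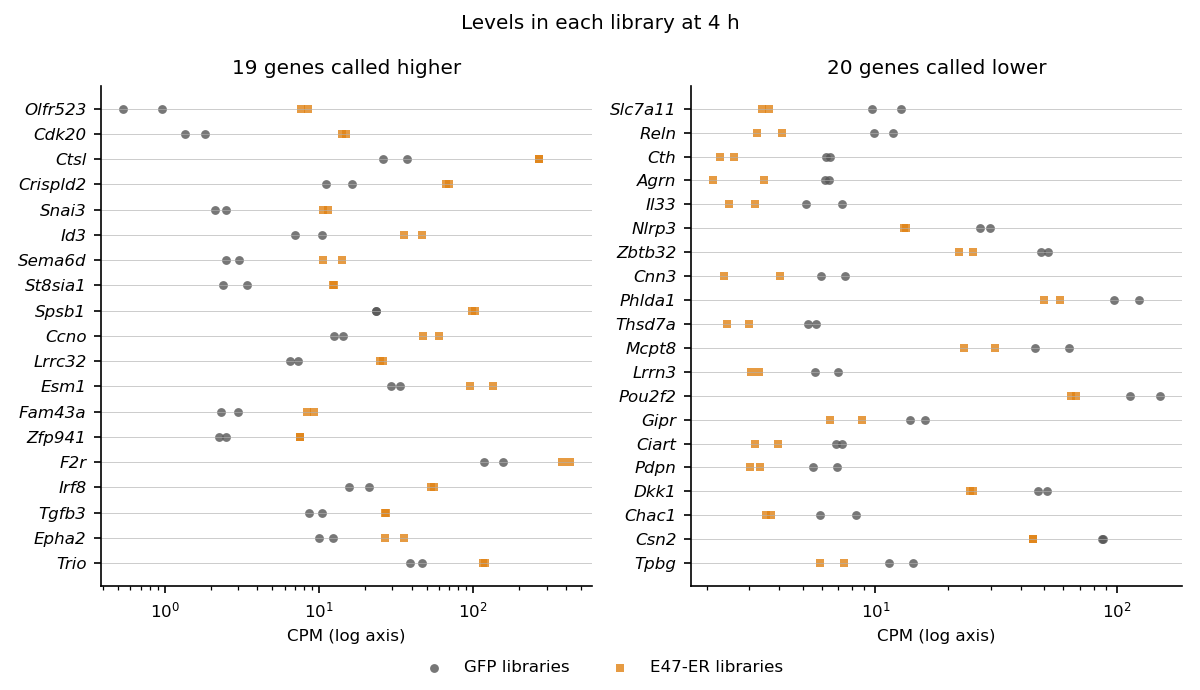
CPM (log axis) in each of the 2 GFP libraries (circles) and 2 E47-ER libraries (squares) at 4 h for the genes with the largest changes outside the lineage lists at a mean log2 CPM of 2 or more, without predicted genes, 19 called higher (left, without Esr1) and 20 called lower (right). The genes were chosen with the E47-ER pair and the GFP pair apart, as in Ctsl (25.9 and 37.1 against 266 and 267) and Csn2 (87.1 and 86.7 against 44.7 and 44.7).

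Many of the genes that fell belong to metabolism. Genes of glycolysis and the hypoxia response, which take up and break down glucose or answer low oxygen, had 14 of 39 members called lower and 1 higher, where 1.27% of all tested genes were lower. This list, too, was chosen with earlier results of these data known, so the comparison is no test of it. With all 8 libraries fitted, 2 genes were called lower, Nlrp3 and Zbtb32, and no member of this list was among them. The median log2 fold change of the list was -0.28, against -0.01 over all tested genes, and 37 of the 39 values were negative. The called falls were small. Slc2a3, a glucose transporter, stood at 162 and 178 CPM in GFP and 102 CPM in both E47-ER libraries (-0.73, SE 0.0824, adjusted p = 9.49e-05). Ak4, a mitochondrial adenylate kinase, stood at 51.2 and 49.8 CPM against 31.2 and 28.7 CPM (-0.75, SE 0.102, adjusted p = 0.000467). Vegfa, an angiogenic growth factor, fell by 0.74 (adjusted p = 0.00268) and Slc16a3, which exports lactate, by 0.48 (adjusted p = 0.00259). Ldha, lactate dehydrogenase, stood at 3510 and 3570.2 CPM against 2767 and 2732 CPM (-0.36, SE 0.0757, adjusted p = 0.0145), and its call was lost without E47-ER replicate 2. The member that rose was Egln3, an oxygen-sensing prolyl hydroxylase that marks hypoxia-inducible factor for degradation, at 180 and 191 CPM against 326 and 314 CPM (0.79, SE 0.0756, adjusted p = 2.72e-05). In none of these 6 genes did the groups overlap, which held for all called genes and for 45.8% of all tested genes.

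Targets of ATF4, the transcription factor of the amino acid and integrated stress response, were the second such group. Of 37 tested members 13 were called lower and none higher, the median was -0.28 and 5 values were positive. That is 35.1% of the list, where 3.38% of all tested genes were called. With all 8 libraries fitted, 2 genes were called lower, Nlrp3 and Zbtb32, and no member of this list was among them. Slc7a11, the cystine transporter, stood at 12.8 and 9.67 CPM in GFP and 3.64 and 3.39 CPM in E47-ER libraries (-1.67, SE 0.213, adjusted p = 0.000294). Cth, which makes cysteine from cystathionine, stood at 6.51 and 6.27 CPM against 2.6 and 2.28 CPM (-1.38, SE 0.236, adjusted p = 0.00364). Nupr1, a stress-induced chromatin protein, stood at 175 and 192 CPM against 93.3 and 106 CPM (-0.88, SE 0.0892, adjusted p = 3.93e-05). All 3 had their E47-ER libraries below both GFP libraries. Asns, asparagine synthetase (-0.62, adjusted p = 0.000982), Eif4ebp1, a repressor of translation (-0.65, adjusted p = 0.000633), and the arginine transporter gene Slc7a3 (-1.45, adjusted p = 0.00667) fell too. Atf4 itself was lower, at 388 and 408 CPM against 295 and 328 CPM (-0.35, adjusted p = 0.0225). The endoplasmic reticulum genes Hspa5 (-0.05, adjusted p = 0.829) and Xbp1 (0.14, adjusted p = 0.398) did not pass and were chosen after their values were seen.

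The next 5 lists had 1 called member or none each, where 3.38% of all tested genes were called. Among 23 tested cholesterol synthesis genes the smallest adjusted p was 0.239 (Hsd17b7, -0.29), the median was -0.10 and 4 values were positive. Of 30 interferon response genes only Oasl1 was lower (-1.41, SE 0.327, adjusted p = 0.0288), although the median of the list was -0.23 and 25 of its values were not above 0. Those genes differed between the GFP replicates, since Ifit1 stood at 8.76 and 3.67 CPM in them against 2.79 and 1.77 CPM with E47-ER (adjusted p = 0.135). Of 20 estrogen responsive genes, given because the fusion carries an estrogen receptor part, 10 were tested and only Stc2 was called (-0.83, adjusted p = 0.0201). NF-kB genes had 1 of 30 called, Map3k8 (0.44, adjusted p = 0.0138), and inflammasome genes 1 of 22, Nlrp3, which fell from 29.7 and 27.2 CPM to 13.2 and 13.3 CPM (-1.10, SE 0.123, adjusted p = 9.41e-05).

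Adhesion and cell surface genes had 5 of 44 tested members called higher and 3 lower (18.2% called, where 3.38% of all tested genes were). Itgb3, an integrin chain of the vitronectin receptor, stood at 286 and 217 CPM in GFP and 399 and 428 CPM in E47-ER libraries (0.72, SE 0.114, adjusted p = 0.00517). Itgae, the integrin chain that binds E-cadherin (0.40, adjusted p = 0.00636), and Cdh1, E-cadherin itself (1.15, adjusted p = 0.0205), both rose, Cdh1 from 2.19 and 2.81 CPM to 5.97 and 5.15 CPM. Cd24a stood at 119 and 133 CPM against 84.8 and 82.7 CPM (-0.59, SE 0.0874, adjusted p = 0.00117). Secreted and matrix genes had 3 of 33 higher and 4 lower (21.2% called). Lgals9, a galectin, stood at 163 and 167 CPM against 289 and 267 CPM (0.75, SE 0.0769, adjusted p = 4e-05), whereas the collagen gene Col18a1 fell by 0.35 (adjusted p = 0.0167). The E47-ER and GFP libraries did not overlap in any of these genes, as in all called genes.

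Of 40 tested solute carriers 2 were called higher and 5 lower, and of 36 channel and ABC transporter genes 1 higher and 5 lower. That is 17.5% and 16.7% called, where 3.38% of all tested genes were. The 2 solute carriers that rose, Slc7a8 (0.55, adjusted p = 0.000851) and Slc38a1 (0.47, adjusted p = 0.003), carry neutral amino acids. Those that fell include the cystine, arginine and glucose carriers given above. Abca1, a cholesterol exporter, stood at 30.5 and 30.5 CPM in GFP and 20.8 and 18.9 CPM in E47-ER libraries (-0.61, SE 0.116, adjusted p = 0.00779). Scn7a, a sodium channel gene (-0.85, adjusted p = 0.00173), and P2rx1, an ATP-gated channel (-0.89, adjusted p = 0.00466), fell too, and Kcnn4, a calcium-activated potassium channel, rose by 0.33 (adjusted p = 0.025).

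Of 36 sphingolipid, fatty acid and eicosanoid genes 2 rose and 3 fell (13.9% called, where 3.38% of all tested genes were), with Ptges, a prostaglandin E synthase (0.57, adjusted p = 0.0108), higher and Pla2g12a, a secreted phospholipase (-0.59, adjusted p = 0.00335), lower. Of 30 chromatin regulators 2 rose (6.67% called), both of the Polycomb system, Ezh2 (0.50, adjusted p = 0.00461) and Cbx7 (0.45, adjusted p = 0.0252), of which Cbx7 overlaps Apobec3. Of 34 apoptosis genes 2 were called (5.88%). Bcl2l11, which encodes the killer BIM, rose from 64.1 and 55.0 CPM to 103 and 113 CPM (0.86, SE 0.0974, adjusted p = 9.69e-05), and Phlda1 fell. Of 30 phosphatases 2 rose (6.67% called), among them Ptprc, the pan-leukocyte CD45 gene (0.35, adjusted p = 0.015). Of 27 nuclear receptor and circadian genes (7.41% called) 1 rose, Hlf, a PAR bZIP factor (0.63, adjusted p = 0.00013), and 1 fell, Ciart (-0.98, adjusted p = 0.0225). Of 20 Notch pathway genes (5% called) only Rbpj, its DNA-binding factor, was called (-0.33, adjusted p = 0.0264). Of 16 neuropeptide and synaptic genes Gal rose and Calca fell (12.5% called).

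Single genes that fell came from secreted, neural and milk protein families. Reln, the secreted glycoprotein reelin, stood at 9.86 and 11.8 CPM in GFP and 4.09 and 3.24 CPM in E47-ER libraries (-1.56, SE 0.208, adjusted p = 0.000419). Csn2, the milk protein beta-casein, stood at 87.1 and 86.7 CPM against 44.7 CPM in both E47-ER libraries (-0.96, SE 0.0883, adjusted p = 1.7e-05), and its neighbour Csn1s1 fell by 0.74 (adjusted p = 0.0218). Dkk1, a secreted Wnt antagonist, stood at 46.9 and 51.4 CPM against 25.4 and 24.6 CPM (-0.98, SE 0.106, adjusted p = 7.17e-05). Each E47-ER library lay below each GFP library in these genes, as in all genes called lower. Phlda1 (-1.04, adjusted p = 0.00013), a stress-induced gene, and Calca (-0.91, adjusted p = 0.000273), the calcitonin gene-related peptide gene of ILC2, fell as well. Mcpt8, a basophil protease gene, fell from 45.7 and 63.0 CPM to 23.2 and 31.3 CPM (-1.01, SE 0.178, adjusted p = 0.0165). Il33, the alarmin that activates ILC2, and Agrn, agrin, fell by 1.16 each (adjusted p = 0.0225 and 0.0201), and each lost its call with DESeq2 and without at least 1 library, E47-ER replicate 2 for Agrn and E47-ER replicate 1 or GFP replicate 2 for Il33.

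In the ILC2 list itself 8 of 42 tested members were higher and 7 lower (median 0.09), and in the T lineage list 5 of 25 were higher and 1 lower (median 0.16). That is 35.7% and 24% called, where 3.38% of all tested genes were. Trbc2, a T cell receptor constant region gene with a near-identical copy in Trbc1, stood at 21.6 and 20.7 CPM against 61.0 and 60.9 CPM (1.53, SE 0.101, adjusted p = 9.67e-07), and Themis, a thymocyte signalling gene, fell (-0.77, adjusted p = 0.0164). Il5 and Il13, the hallmark cytokines, were both lower, Il5 at 4693 and 5995 CPM against 3741 and 3981 CPM (-0.47, SE 0.104, adjusted p = 0.0228) and Il13 at 8414 and 8697 CPM against 6455 and 6851 CPM (-0.36, SE 0.08, adjusted p = 0.0211). Their groups did not overlap, but Il5 was not called without E47-ER replicate 2, nor Il13 without E47-ER replicate 1. Rora, a factor needed for ILC2 development (0.85, adjusted p = 9.41e-05), and Ccr8, a chemokine receptor (0.92, adjusted p = 6.06e-05), rose.

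Called genes often lay beside another called gene. Within 100 kb, 103 of the 442 (23.3%) had a called neighbour, against 9.99% of 12629 genes that were not called, a share that local gene density also sets and that was not tested. Of the 81 such pairs 76 moved in the same direction, and 8 overlapped so that their reads may be shared. The pairs are not independent, since 1 locus can give many. Examples are the T cell receptor beta genes and segments and the genes around Olfr523 and Tinf2. Because 276 of the 442 called genes were higher, part of the pairs would share a direction in any case, and this was not tested. Ctsl and Cdk20 were 61424 bases apart (chromosome 13, 64359337 to 64370890 and 64432314 to 64441773, GRCm38), and they were the only 2 of 7 tested genes within 300 kb of the Cdk20 start to be called. On chromosome 7, 7 of 19 tested genes within 300 kb of the Olfr523 start were called, all of them higher, where 3.38% of all tested genes were called. Cdk20 and Olfr523 are included in these counts and were picked as called genes with called neighbours. The counts around them are therefore no test. Olfr523, annotated as an odorant receptor gene, stood at 0.966 and 0.54 CPM in GFP and 8.51 and 7.65 CPM in E47-ER libraries (3.44, SE 0.302, adjusted p = 1.19e-05). Its neighbours Sprn (1.45, adjusted p = 9.69e-05), a prion-like protein gene, Cd163l1 (0.80, adjusted p = 0.00817), a scavenger receptor gene, and Olfr60 (1.39, adjusted p = 0.000938) rose with it. Sprn overlaps Mtg1 on the opposite strand, and odorant receptor genes have close relatives whose reads may have been divided among them.

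Smaller rises were shared in other places, likewise picked for called genes that lie together. Ikzf3, a zinc finger factor of lymphocytes (0.49, adjusted p = 0.00287), had Grb7 (1.07, adjusted p = 0.0155), a signalling adaptor, and Ormdl3 (0.47, adjusted p = 0.00509), a regulator of sphingolipid synthesis, called within 100 kb. Tinf2 (0.44, adjusted p = 0.0313), a telomere protein, was called with Tgm1 (0.89, adjusted p = 0.0193), Rabggta (0.53, adjusted p = 0.0215) and Dhrs1 (0.56, adjusted p = 0.00306), and the other 23 tested genes within 300 kb of it were not. Wnt10b lay 7498 bases from Arf3 (0.44, adjusted p = 0.00498) and Id3 26639 bases from E2f2. Cd27, a costimulatory receptor gene, rose (2.41, adjusted p = 3.51e-05) together with Vamp1 (1.18, adjusted p = 6.76e-05), which overlaps it on the opposite strand. The 5 pairs that moved apart included Sdc4, which rose, and Slpi, a protease inhibitor, which fell (-0.66, adjusted p = 0.00525).

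**Figure D3:**
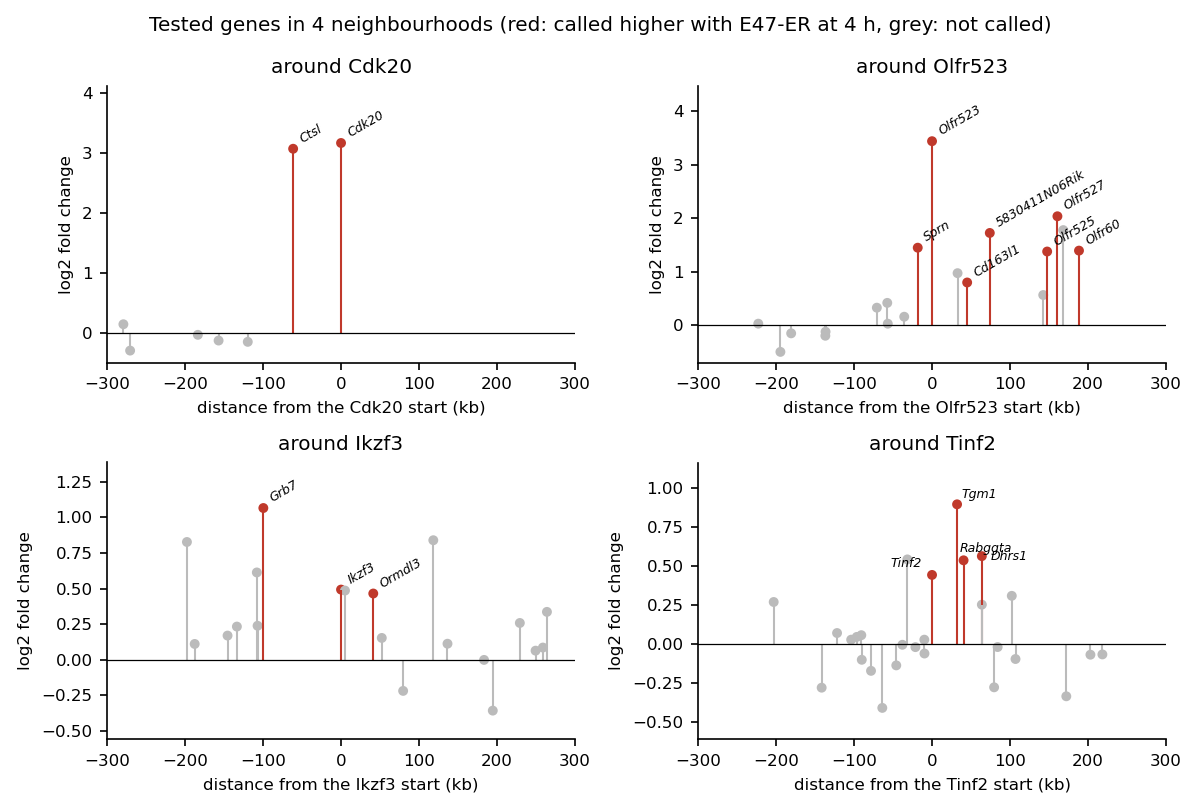
Log2 fold change at 4 h (y axis, a different range in each panel) of every tested gene within 300 kb of the start of Cdk20, Olfr523, Ikzf3 and Tinf2 (x axis, distance in kb); red genes were called higher and grey genes were not called. Called genes number 2 of 7, 7 of 19, 3 of 20 and 4 of 27 in the 4 panels, where 3.38% of all tested genes were called. Each count includes the centre gene, picked as a called gene with called neighbours, so the counts are no test. The genes 5830411N06Rik, Olfr525 and Olfr527 are named because they lie in the second panel.

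The same genes were then read in the 16 h libraries, which share no sample with those of 4 h. With all 8 libraries fitted, 264 of the 276 genes higher at 4 h (95.7%) and 154 of the 166 lower (92.8%) had the same sign at 16 h, against 62.9% of genes not called at 4 h. At 16 h 1.25% of 13644 tested genes were called higher and 0.337% lower; 119 of the 4 h rises were among them (43.1% of the 4 h list and 69.6% of the 16 h list) and 22 of the falls (13.3% and 47.8%). Without GFP 16 h replicate 2, 4.39% of 14146 genes were called higher and 4.53% lower at 16 h, with 215 of the rises (77.9% and 34.6%) and 114 of the falls (68.7% and 17.8%) among them. No 4 h gene was called in the other direction. Median log2 fold changes were 0.70 at 4 h and 0.86 at 16 h for the higher genes and -0.58 and -0.61 for the lower, with all 8 libraries. Without GFP 16 h replicate 2 they were 0.70 and 0.83 for the higher and -0.58 and -0.55 for the lower, so the order of the times for the lower genes turned with that library.

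No gene of 13644 (0%) passed edgeR's test for a difference between the effects at the 2 times with all 8 libraries, where 671 had an unadjusted p under 0.05 and DESeq2 called none. Without GFP 16 h replicate 2, 6 of 14146 genes passed (0.0424%), in a fit where the GFP 16 h group is 1 library and its spread is assumed to be that of the other groups. Ctsl was among them, with a log2 fold change of 3.08 at 4 h and 4.88 at 16 h in that fit. With all 8 libraries other genes were nearer to 0 at 16 h, again without a difference that passed. Examples are Gfi1, a zinc finger repressor of ILC2 (0.62 at 4 h and 0.09 at 16 h), and Csf2rb2, a cytokine receptor chain with a close copy in Csf2rb (0.39 and 0.07). Cited2 stood at -0.77 and -0.22 in that fit, but without GFP 16 h replicate 2 its 16 h value was -0.44 and was called lower (adjusted p = 0.00692).

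**Figure D4:**
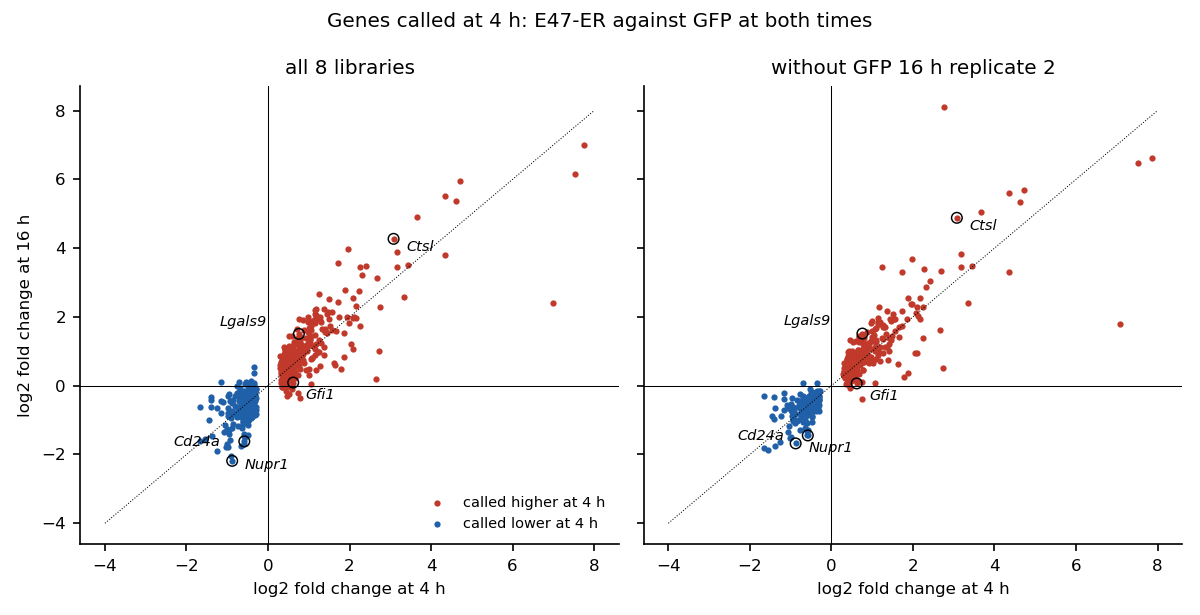
Log2 fold change of E47-ER against GFP at 4 h (x axis) and at 16 h (y axis) for the 442 genes called at 4 h, from the fit of all 8 libraries (left) and without GFP 16 h replicate 2 (right); red and blue points were called higher and lower at 4 h, ringed points are named, and the dotted line marks equal values. At 16 h 264 of the 276 higher and 154 of the 166 lower genes keep their sign on the left, and 274 and 164 on the right.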

How the data were processed

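Raw counts, 1 whole number per gene and library, were deposited by the authors without normalization and used unchanged. The submitters' processing notes name the build mm10 and DESeq2, with no version or role; the sources used here give no aligner, counting tool or strand setting. Symbols, positions and overlaps came from GENCODE M21 (GRCm38), which named 50462 of 50686 gene IDs, and promoter windows from RefSeq.

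The 4 libraries of 4 h were fitted in edgeR 4.0.16 (R 4.3.3): filterByExpr with a minimum count of 10, TMM scaling, and a robust quasi-likelihood fit with 1 mean per group. Tests were two-sided with Benjamini-Hochberg adjustment, and each standard error is the size of the log2 fold change over the square root of F. The 16 h values and the difference between times used all 8 libraries, with and without GFP 16 h replicate 2. Alternatives were DESeq2 1.42.0, limma voom 3.58.1, other scalings and filters, a replicate block and leaving out each library. The procedure was tested on simulated data. A floor of 3 counts was used for genes at 0 counts, for counting error only.

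The members, 34 gene lists and 8 marker lists were chosen with earlier results of these data known. Named genes were Tcf3, Esr1 and Id1, up to 20 per direction by fold change with log2 CPM of 2 or more and groups apart, without predicted genes, pseudogenes and receptor segments, up to 10 by smallest p and 5 by level, up to 4 called per list and direction, and called genes within 100 kb of another. List members outside the rule are given as values.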

Additional observations from a re-analysis of the deposited data

Results flagged for a closer look

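With GFP 16 h replicate 2 left out, the effect of E47-ER at 16 h minus that at 4 h passed edgeR's adjusted threshold for 4 of the genes named here. Ctsl had a difference of 1.80 on the log2 scale (SE 0.196, adjusted p = 0.000905) and Lgals9, the galectin-9 gene, 0.76 (SE 0.128, adjusted p = 0.0137), so both fitted rises were larger at 16 h. Cd24a, a surface glycoprotein gene, had -0.87 (SE 0.145) and Nupr1 -0.80 (SE 0.135), each with an adjusted p of 0.0137, so both fitted falls were larger at 16 h. That fit has 1 GFP library at 16 h, whose spread is assumed to be that of the other groups, and with all 8 libraries none of these passed. None of the 199 named genes had its libraries on opposite sides at the 2 times. All 199 were called at 4 h, and the same count was not made over all tested genes, so it shows nothing particular to them.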

How the results depend on the processing

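The 442 calls at 4 h were 276 higher and 166 lower. All 442 kept their sign in every fit that gave them a value. Their groups did not overlap at 4 h, so a change of sign was hardly possible and this adds nothing to the calls. The count was 39 with all 8 libraries (37 higher, 2 lower) and 612 with 7, without GFP 16 h replicate 2. It was 794 with no filter on low counts, of which 425 were higher and 369 lower, and 357 with DESeq2. RLE scaling, library totals, a minimum count of 30, no robust estimation and limma voom gave 401 to 484. Leaving out each 4 h library gave 291 to 1335 calls, the lowest without E47-ER replicate 2 and the highest without GFP replicate 1, with the lone library assumed to vary like the other group. With a replicate block 833 were called (466 higher, 367 lower). The differences between replicates 1 and 2 were barely correlated between the groups (r = 0.042 over 13087 genes). Whether same-numbered libraries were prepared together is not in the labels, and the correlation cannot settle it. The difference between times gave 0 calls in all fits except 5124 without GFP 16 h replicate 1 and 6 without replicate 2; left-out replicates gave 0 to 5124. No named gene reversed, which groups lying apart made nearly certain, and 128 of 199 were called with each 4 h library left out. Depth limits genes of few counts: 3 counts over the GFP group are 0.0882 CPM.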

Other observations

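Ighm, the immunoglobulin mu constant region gene, rose from 3.03 and 6.32 CPM to 10.7 and 11.9 CPM (log2 fold change 1.25, adjusted p = 0.0225 by edgeR), while Pax5 and Ebf1 of the same B cell list had at most 3 counts in any library and Cd79b (91, 139, 118 and 89 counts) and Fcmr (84, 97, 75 and 73 counts) were present in both groups. Epcam, an epithelial adhesion gene, rose from 5.22 and 7.24 CPM to 10.4 and 14.1 CPM (0.96, adjusted p = 0.0181), with Krt5, Krt14 and Foxn1 at 0 counts, Pecam1 at 147 to 149 CPM and Pdgfrb at 5.94 to 8.70 CPM over the 4 libraries. Palmd had 0 counts in both GFP libraries and 15 and 16 with E47-ER, at least 12.2-fold higher than a floor of 3 counts over the GFP pair. Gzma, a granzyme gene, stood at 3082 and 3577 CPM in GFP and 5348 and 8065 CPM in E47-ER libraries and did not pass (1.01, adjusted p = 0.0663). Palmd, Gzma, Ighm and Epcam were chosen after their values were seen. Genes called higher had a median exonic length of 4779 bases, genes called lower 3928 and all tested genes 4132.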
